A study of Mus musculus with 20 samples.

Results

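The genes described here are 10 chains, kinases and adaptors that act next to the B cell receptor: Cd79a, Cd79b, Lyn, Syk, Btk, Blnk, Plcg2, Bank1, Pik3ap1 and Grap2. They were taken by symbol from the 23382 gene symbols of the deposited tables, and all 10 were among the 11386 genes that were tested. RNA had been sequenced from sorted mouse germinal centre B cells in 20 libraries, 5 in each of 4 groups. L252P centrocytes carried 1 copy of the L252P allele of Myd88 and control centrocytes had wild-type Myd88, and the sort gate of both was B220+FAS+GL7+CXCR4-CD86+. L252P centroblasts and control centroblasts had the same pair of genotypes, in a gate of B220+FAS+GL7+CXCR4+CD86-. All 4 groups, controls included, carried 1 copy of a Cre recombinase at the C gamma 1 locus (Cgamma1Cre:+/-), so a Cre-dependent allele is switched on only in cells in which that locus had driven Cre. The labels give neither age, immunization nor how many mice were used, and libraries of 1 group may share a mouse. The p-values therefore measure the spread between libraries, which may be technical.

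The B cell receptor is a membrane immunoglobulin bound to a heterodimer of CD79A and CD79B. On antigen binding the SRC family kinase LYN phosphorylates a pair of tyrosines in the tail of each CD79 chain, the kinase SYK docks there, and the adaptor BLNK then brings BTK and phospholipase PLCG2 together, which leads to calcium release and NF-kB activity. BANK1 is a scaffold that binds LYN, PIK3AP1 (BCAP) links the receptor to phosphoinositide 3-kinase, and GRAP2 (GADS) is an adaptor best known from T cells. MYD88 is an adaptor of Toll-like receptors and leads to NF-kB activity as well. Centroblasts are the dividing cells of the dark zone of the germinal centre, and centrocytes are the cells of the light zone, where antigen is tested.

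The stretch that receives the signal is shown first, because the level of 1 CD79 chain relative to the other passed its test in all 4 comparisons below. For L252P against control centroblasts that call was lost when some single libraries were left out. The stretch is the coding sequence of the signalling motif in the tail of each chain, from GENCODE M21 transcripts (GRCm38). It runs 5′ to 3′ along the transcript, with the codons of the paired tyrosines in capitals.
Cd79a: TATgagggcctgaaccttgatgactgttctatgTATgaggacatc
Cd79b: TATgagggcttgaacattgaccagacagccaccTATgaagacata
The Cd79a stretch lies at chr7:24901296-24901469 on the plus strand and runs from exon 4 into exon 5 of 5, across an intron. The Cd79b stretch lies at chr11:106311867-106312012 on the minus strand and runs from exon 5 into exon 6 of 6. Of the 45 bases, 31 (68.9%) were the same in both, and the second tyrosine was the 11th codon after the first in each.

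The windows below, from 250 bases before to 50 bases after a transcript start (RefSeq, GRCm38.p6), are shown for Bank1 and Grap2, the members with the smallest p-values in L252P centroblasts. The Bank1 window is chr3:136326017-136326316 on the minus strand, and the Grap2 window is chr15:80623233-80623532 on the plus strand, which starts inside the span of the gene. Capitals mark an ETS core (GGAAGT or, on the other strand, ACTTCC) and an EBF core (CCCNNGGG, which reads the same on both strands).
Bank1: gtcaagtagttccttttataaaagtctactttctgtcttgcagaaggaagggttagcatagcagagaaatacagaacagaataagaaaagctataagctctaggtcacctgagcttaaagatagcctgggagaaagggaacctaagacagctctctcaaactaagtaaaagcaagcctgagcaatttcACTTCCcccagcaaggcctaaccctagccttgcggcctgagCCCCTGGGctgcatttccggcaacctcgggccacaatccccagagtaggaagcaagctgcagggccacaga
Grap2: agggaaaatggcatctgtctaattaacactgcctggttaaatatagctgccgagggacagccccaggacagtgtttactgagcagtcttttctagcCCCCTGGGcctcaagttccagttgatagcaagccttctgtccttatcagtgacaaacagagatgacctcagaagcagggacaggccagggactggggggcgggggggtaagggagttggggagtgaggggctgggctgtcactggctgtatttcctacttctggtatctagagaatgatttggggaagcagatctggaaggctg
The Bank1 window held an ETS core and an EBF core, and the Grap2 window an EBF core. The table had 9 windows for 8 members, 2 of them for Syk. The ETS core was in 5 of the 9 (Bank1, Blnk, Cd79a, Pik3ap1 and Syk) and in 23.8% of all 32851 windows of that length, and the EBF core was in 2 of the 9 and in 13.7% of all. A part of the octamer element (TGCAAAT, both strands) was in the Blnk window and in 4.02% of all, an E-box (CACGTG) in the Pik3ap1 and Plcg2 windows and in 7.15% of all, and an AP-1 core (TGANTCA) in no member's window and in 7.81% of all. These are matches of letters and not measured binding.

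Levels are given as TPM (a share of all transcripts, which is scaled for transcript length and keeps no read depth), so the number of reads behind a value is unknown. Markers of the labelled cell type were present. The B cell marker Ms4a1 averaged 3870.0 ± 456 TPM in L252P centrocytes, 4329 ± 208 in control centrocytes, 2763 ± 190.4 in L252P centroblasts and 3043 ± 376 in control centroblasts (SD, n = 5 each, as for every mean here). The germinal centre gene Bcl6 was at means of 241 to 339.9 TPM over the 4 groups. L252P centroblasts 4 and 5 stood apart. They had 12895 and 12719 genes above 0, against 13053 to 14092 in the other 18 libraries, and 12.5% and 17.1% of TPM in ribosomal protein genes, against 7.37% to 10.01%. No pair of libraries of a group was the same throughout, with 16 to 64 identical values among the tested genes.

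The 10 genes were expressed in every library, over a wide range. In control centroblasts the order of mean TPM was Cd79b (4242 ± 381), Cd79a (1877 ± 189), Blnk (607 ± 68.4), Syk (498 ± 45.2), Plcg2 (422 ± 45.7), Lyn (338 ± 13.8), Btk (325 ± 18.7), Bank1 (286 ± 27.0), Pik3ap1 (263 ± 22.2) and Grap2 (15.1 ± 1.73). The neighbours Lyn and Btk, and Bank1 and Pik3ap1, differed by no more than the larger SD of the pair. The CD79 chains together made up 60.0% to 71.0% of the summed TPM of the 10 genes in 18 libraries, and 75.3% and 81.6% in L252P centroblasts 4 and 5.

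**Figure D1:**
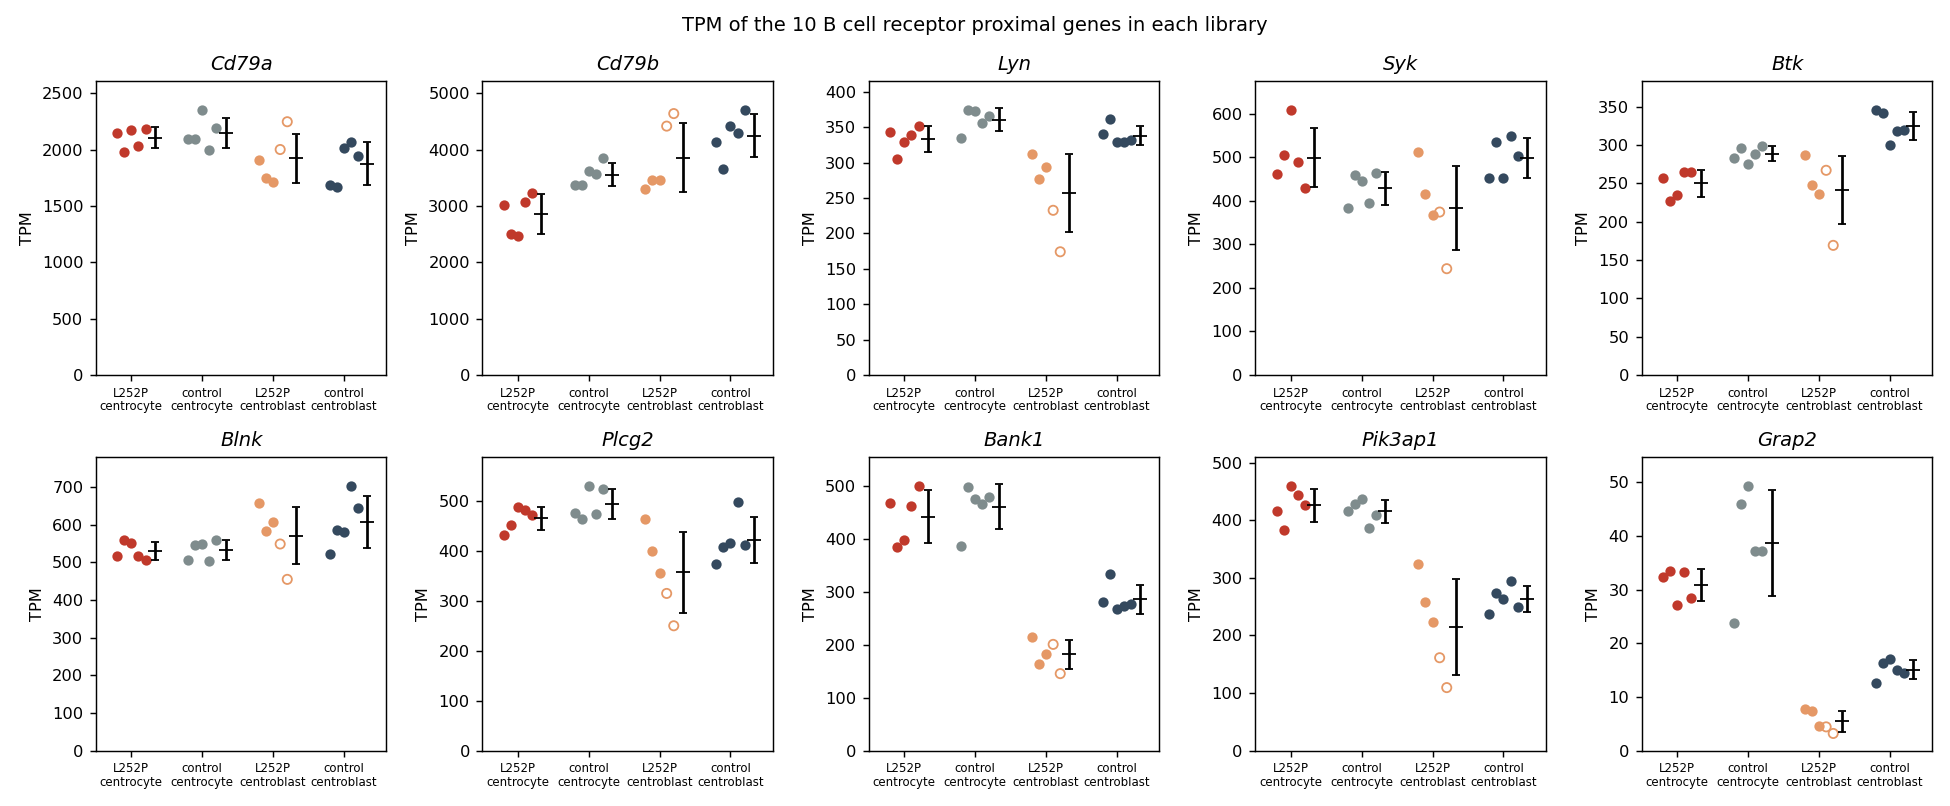
TPM of each of the 10 genes (vertical axes, each from 0) in the 20 libraries, by group on the horizontal axis, with black bars for mean ± SD (n = 5) and open circles for L252P centroblasts 4 and 5. Bank1, Pik3ap1 and Grap2 are higher in centrocytes than in centroblasts of either genotype with no overlap, and the L252P centroblast points for Lyn, Btk, Bank1 and Grap2 all lie below the control centroblast points.

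In L252P centroblasts, 4 of the 10 genes were lower than in control centroblasts and none was higher: the adaptors Grap2 and Bank1 and the kinases Btk and Lyn (limma on log2(TPM + 1), Benjamini-Hochberg adjusted p under 0.05 over all tested genes). Of all tested genes 4.29% passed, 3.38% as lower. The same 4 genes were the ones whose groups of 5 did not overlap, all with L252P below, against 2.99% of all tested genes (0.755% with L252P above). The median log2 fold change of the 10 genes was -0.40, and that of all tested genes was -0.16. In bulk RNA fewer cells of a type and less RNA per cell cannot be told apart. The sum of the 9 markers of naive B cells was lower as well. It was 384 ± 82.9 TPM (291 to 509) in L252P centroblasts and 557 ± 83.9 TPM (485 to 699) in control centroblasts. Of the 9 markers, 6 had negative and 3 had positive log2 fold changes, and 3 passed as lower. Erythroid markers were higher, at 559 ± 196 TPM (323 to 809) in L252P centroblasts and 135 ± 93.6 TPM (23.2 to 271) in control centroblasts, with 3 of 4 tested genes passing and Hba-a1 and Hbb-b1 at 0 in both. No myeloid marker passed. The part of these cells in the members' values was not tested.

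Grap2 had 7.66, 7.41, 4.59, 4.42 and 3.19 TPM in L252P centroblasts 1 to 5, against 12.6, 16.4, 17.0, 14.9 and 14.4 TPM in control centroblasts 1 to 5. Every L252P library lay below every control library, with means of 5.45 ± 1.98 and 15.1 ± 1.73 TPM. Its log2 fold change was -1.36 ± 0.19 (SE, 95% interval -1.75 to -0.97, limma adjusted p = 4.64e-04), rank 8 of the 11386 genes by p. Grap2 is the least abundant of the 10 genes. Of the cell types in which GADS is best known, the 15 T and NK cell markers summed to 517 ± 28.2 TPM in L252P centroblasts and 523 ± 60.8 TPM in control centroblasts. Most of that was Cd2 (309 and 368 TPM) and Lck (199 and 146 TPM), which moved in opposite directions. Lat averaged 4.38 and 5.21 TPM, Cd3g 1.02 and 0.346 TPM, Cd3e 0.296 and 0.0551 TPM and Zap70 0.845 and 0.939 TPM. Of the 5 tested markers, 2 had positive and 3 had negative log2 fold changes, and 0 passed. An unadjusted p under 0.05 in limma was found for 3 of the 5 and for 30.3% of all tested genes. The 10 platelet and mast cell markers summed to 1.80 and 1.30 TPM. The part of any of these cells in the Grap2 values was not tested.

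Bank1 had 214, 164, 183, 200.5 and 145 TPM in L252P centroblasts, against 280.0, 333, 267, 272 and 276 TPM in control centroblasts. All 5 L252P libraries were lower than all 5 controls, and libraries 4 and 5 did not stand out among them. The log2 fold change was -0.66 ± 0.10 (95% interval -0.88 to -0.44, limma adjusted p = 0.00143, rank 17).

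Btk had 287, 248, 236, 267 and 169 TPM in L252P centroblasts, against 345, 342, 300.0, 318 and 320.0 TPM in control centroblasts. The groups did not overlap, with the highest L252P library just under the lowest control. The log2 fold change was -0.45 ± 0.10 (limma adjusted p = 0.0197), and the adjusted p was 0.0534 without control centroblast 2. Lyn had 312, 276, 294, 233 and 174 TPM in L252P centroblasts, against 341, 362, 329, 329 and 332 TPM in control centroblasts. The controls lay close together and every L252P library was under them, libraries 4 and 5 furthest. The log2 fold change of Lyn was -0.42 ± 0.11 (limma adjusted p = 0.0342), and the call was lost without any of control centroblasts 1 to 5 or without L252P centroblast 4 (limma adjusted p = 0.054 to 0.089).

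Syk, the kinase that docks on the phosphorylated CD79 tails, had 512, 416, 367, 374 and 244 TPM in L252P centroblasts, against 452, 536, 452, 548 and 503 TPM in control centroblasts. L252P library 1 lay inside the control range and the other 4 below it, and the difference of -0.41 ± 0.14 on the log2 scale did not pass (limma adjusted p = 0.0734). Pik3ap1 ranged widely, with 323, 258, 223, 161 and 109 TPM in L252P centroblasts, against 238, 274, 263, 295 and 248 TPM in control centroblasts. One L252P library was above all controls and 3 were below all of them. The difference was -0.38 ± 0.18 (limma adjusted p = 0.152). Plcg2 had 464, 399.5, 355, 315 and 249.9 TPM in L252P centroblasts, against 374, 408, 417, 498 and 412 TPM in control centroblasts, a difference of -0.27 (limma adjusted p = 0.133) with overlapping groups. Without L252P centroblast 1 all of Syk, Plcg2 and Pik3ap1 passed (limma adjusted p = 0.0082, 0.017 and 0.0154), which made 7 of the 10 genes lower in a fit where 27.3% of all tested genes passed, 23.6% as lower. Without control centroblast 2 only Bank1 and Grap2 did.

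The receptor chains and Blnk, the adaptor that assembles BTK and PLCG2, gave values within the spread. Cd79a averaged 1924 ± 216 TPM in L252P centroblasts and 1877 ± 189 TPM in control centroblasts (log2 fold change 0.03, limma adjusted p = 0.787). Blnk averaged 569.8 ± 75.6 TPM in L252P centroblasts and 607 ± 68.4 TPM in control centroblasts (-0.09, limma adjusted p = 0.462). Cd79b had 3301, 3468, 3468, 4416 and 4638 TPM in L252P centroblasts, against 4140.1, 3663, 4411, 4300.5 and 4695 TPM in control centroblasts (-0.15, limma adjusted p = 0.308). L252P libraries 1 to 3 were below every control, and libraries 4 and 5 were inside the control range.

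The 2 L252P centroblast libraries that stood apart differed from the other 3 by gene length. The mean of libraries 4 and 5 over the mean of libraries 1 to 3 was 1.33 for Cd79b and 1.19 for Cd79a, whose longest transcripts have 1431 and 1457 bases. It was 0.815 for Blnk, 0.850 for Btk and 0.924 for Bank1, between 0.692 and 0.716 for Lyn, Plcg2 and Syk, 0.580 for Grap2 and 0.504 for Pik3ap1. Over all tested genes with a length the median ratio was 1.06 up to 1500 bases (1453 genes), 0.808 from 1501 to 3000 bases (3389 genes), 0.681 from 3001 to 5000 bases (3042 genes) and 0.535 above 5000 bases (1911 genes). The part of this length pattern in the results above was not tested.

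**Figure D2:**
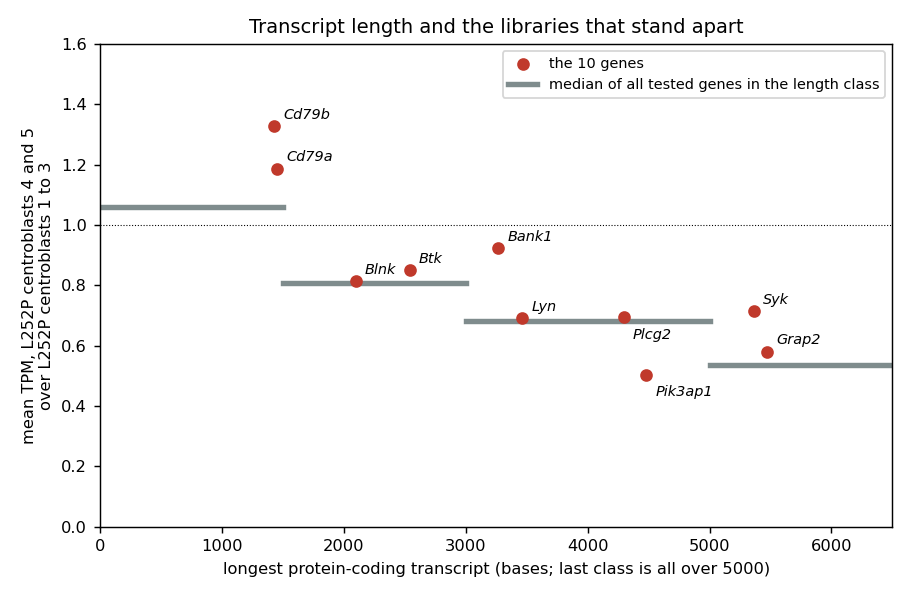
Mean TPM of L252P centroblasts 4 and 5 over the mean of L252P centroblasts 1 to 3 (vertical axis, from 0) against the longest protein-coding transcript in bases, for the 10 genes (red points) and as the median of all tested genes in 4 length classes (grey lines). The ratio is above 1 for Cd79a and Cd79b and below 1 for the other 8 genes, and the class medians run downward with length, at 1.06, 0.808, 0.681 and 0.535.

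Without libraries 4 and 5, Grap2, Bank1 and Btk were still lower in L252P centroblasts. The log2 fold changes were -1.11 for Grap2 (limma adjusted p = 0.00189), -0.61 for Bank1 (0.0022) and -0.34 for Btk (0.0101). Lyn was at -0.20 (0.0775) and Syk at -0.22 (0.386), and Plcg2 and Pik3ap1 at -0.05 and 0.01. Cd79b was at -0.31 (0.0528). The median of the 10 genes was then -0.21 and that of all tested genes -0.02. The scaling of whole libraries mattered as well. With TPM divided by median-of-ratios size factors, which moved the median of all tested genes to 0.01, Bank1 (-0.48, limma adjusted p = 0.0162) and Grap2 (-1.22, 9.85e-05) passed, and Lyn (-0.24, 0.0567) and Btk (-0.26, 0.0856) did not. The split of all called genes was 103 higher and 385 lower as deposited, and 285 higher and 355 lower after that scaling. Without L252P centroblasts 4 and 5 it was 244 higher and 165 lower.

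In L252P centrocytes none of the 10 genes passed against control centrocytes, where 1.2% of all tested genes did (0.896% as higher and 0.307% as lower), and 1 gene, Cd79b, had an unadjusted p under 0.05, as had 9.61% of all tested genes. The median of the 10 genes was -0.07 and that of all tested genes 0.02 on the log2 scale. Cd79b had 3021, 2506, 2466, 3060.4 and 3227 TPM in L252P centrocytes, against 3369, 3368, 3622, 3573 and 3844 TPM in control centrocytes. All 5 L252P libraries were below all 5 controls. The log2 fold change was -0.32 ± 0.10 (95% interval -0.53 to -0.12, limma adjusted p = 0.151, rank 289). It passed in a fit of the centrocytes alone (limma adjusted p = 0.0417) and without L252P centroblasts 4 and 5 (limma adjusted p = 0.0194), where the fold change was the same and the estimated spread differed.

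Btk was the other gene whose centrocyte groups did not overlap, with 257, 227, 235, 265 and 265 TPM in L252P centrocytes, against 284, 297, 276, 289 and 299 TPM in control centrocytes. All L252P libraries were lower, by little. The log2 fold change of -0.21 ± 0.10 (95% interval -0.42 to 0.00) did not pass (limma adjusted p = 0.525). Among all tested genes, 1.99% had groups that did not overlap with L252P below, and 2.63% with L252P above.

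Syk was the member with the largest positive difference in L252P centrocytes, with 460.4, 505, 608, 489.9 and 429 TPM, against 382, 459.6, 445, 395 and 463 TPM in control centrocytes (0.21 ± 0.14, limma adjusted p = 0.768). The groups overlapped. Grap2 had 32.4, 33.5, 27.0, 33.3 and 28.4 TPM in L252P centrocytes, against 23.8, 45.9, 49.3, 37.2 and 37.3 TPM in control centrocytes (-0.28 ± 0.19, limma adjusted p = 0.803). Control centrocyte 1 was the lowest of the 10 libraries and the other 4 controls were the highest. Lyn averaged 334 ± 17.99 TPM in L252P centrocytes and 361 ± 16.3 TPM in control centrocytes (-0.11). Erythroid markers were higher in L252P centrocytes too, at 401 ± 131 TPM (233 to 580) against 138 ± 89.6 TPM (42.6 to 273) in control centrocytes. Of the 4 tested genes 1 passed, and all 4 had an unadjusted p under 0.05. The 9 naive B cell markers summed to 1265 ± 121 TPM in L252P centrocytes and 1306 ± 183 TPM in control centrocytes. Their log2 fold changes were positive for 5 and negative for 4, and 2 passed as higher. The part of these cells in the centrocyte values, the ratio of the CD79 chains below included, was not tested. The other 5 genes, Cd79a, Blnk, Plcg2, Bank1 and Pik3ap1, had log2 fold changes between -0.09 and 0.03.

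**Figure D3:**
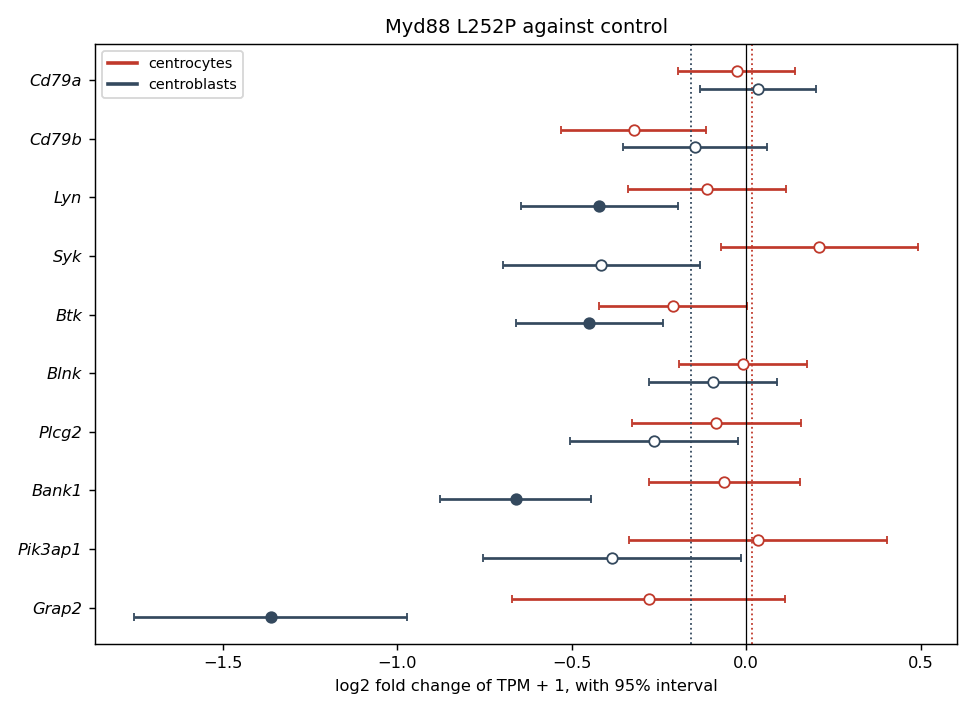
Log2 fold change of TPM + 1, L252P against control, for the 10 genes in centrocytes (upper, red) and centroblasts (lower, dark blue), with 95% intervals. Filled points pass the adjusted threshold, and dotted vertical lines mark the median of all tested genes at 0.02 in centrocytes and -0.16 in centroblasts. Grap2, Bank1, Btk and Lyn are filled in centroblasts and no point is filled in centrocytes.

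Whether the allele acted differently in the 2 gates was tested as the difference of the genotype effects, centrocytes minus centroblasts. None of the 10 genes passed in limma, and 3 had an unadjusted p under 0.05. Of all tested genes 0.0176% passed and 1322 (11.6%) had an unadjusted p under 0.05. Those 3 genes were Grap2 (1.08 ± 0.27, 95% interval 0.53 to 1.64, limma adjusted p = 0.322), Bank1 (0.60 ± 0.15, 0.29 to 0.90, 0.322) and Syk (0.63 ± 0.19, 0.22 to 1.03, 0.403). Each was positive, so the L252P minus control value was higher in centrocytes than in centroblasts, and the median of all tested genes was itself 0.18. That 4 genes passed in centroblasts and none in centrocytes is not itself a test of this difference.

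Of the adaptors, all but Blnk passed between the gates with the values as deposited. With median-of-ratios scaling Blnk passed too, as lower in centrocytes of both genotypes. In control centrocytes Bank1, Pik3ap1 and Grap2 were higher than in control centroblasts and none of the 10 genes was lower, while 30.7% of all tested genes passed, 21.2% as higher and 9.48% as lower. A count of 3 of 10 is close to that background. The median of the 10 genes was 0.14, as was that of all tested genes.

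Grap2 had 23.8, 45.9, 49.3, 37.2 and 37.3 TPM in control centrocytes, against 12.6, 16.4, 17.0, 14.9 and 14.4 TPM in control centroblasts (1.27 ± 0.19, limma adjusted p = 3.31e-05). Bank1 had 386, 497, 475, 466 and 479 TPM in control centrocytes, against 280.0, 333, 267, 272 and 276 TPM in control centroblasts (0.69 ± 0.10, limma adjusted p = 4.23e-05). Pik3ap1 had 416, 428, 437, 386 and 408 TPM in control centrocytes, against 238, 274, 263, 295 and 248 TPM in control centroblasts (0.66 ± 0.18, limma adjusted p = 0.0079). For each of the 3 adaptors every centrocyte library was above every centroblast library, a pattern that 17% of all tested genes had. Markers of myeloid cells and of naive B cells moved in the same direction, and so did those of B cells. The 7 plasma cell markers had a lower sum in control centrocytes (1991 ± 132 TPM) than in control centroblasts (3401 ± 264 TPM). Of the 6 tested, 2 were higher and 2 lower. The 15 T and NK cell markers summed to 473 ± 45.8 and 523 ± 60.8 TPM. Of the 5 tested, 3 were higher and 1 lower. The 6 B cell markers summed to 7241 ± 420 TPM in control centrocytes and 4939 ± 360 TPM in control centroblasts, with 4 of 6 higher. The myeloid list summed to 235 ± 51.6 TPM (195.7 to 324) in control centrocytes and 82.1 ± 9.84 TPM (68.6 to 90.5) in control centroblasts, with 11 of its 13 tested genes higher, none of its 17 genes at 0, and 7 of 9 markers of naive B cells were higher (sums of 1306 ± 183 and 557 ± 83.9 TPM). The part of these cells in the adaptor values was not tested.

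The other 7 genes did not pass between the control gates. Btk averaged 289 ± 9.77 TPM in control centrocytes and 325 ± 18.7 TPM in control centroblasts (-0.17 ± 0.10, limma adjusted p = 0.211), with every centrocyte library just below every centroblast library, which 9.51% of all tested genes also showed. Cd79a was at 0.20 ± 0.08 (0.0675), Cd79b at -0.25 ± 0.10 (0.0593), Plcg2 at 0.23 (0.135), Blnk at -0.18 (0.121), Syk at -0.21 (0.239) and Lyn at 0.09 (0.546). Without L252P centroblasts 4 and 5, which are in neither group but share the estimate of the spread, 8 of the 10 passed, 5 as higher and 3 as lower, and of all tested genes 47.7% passed, 33.4% as higher and 14.3% as lower. With median-of-ratios scaling 6 passed, 3 as higher and 3 as lower (35.6% of all tested genes), the lower ones being Syk (-0.36), Btk (-0.31) and Blnk (-0.33). The split of all called genes was 2419 higher and 1079 lower as deposited, and 2037 higher and 2009 lower after scaling.

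In L252P centrocytes 6 of the 10 genes were higher than in L252P centroblasts and 1 was lower, where 61.5% of all tested genes passed, 48.8% as higher and 12.6% as lower. A count of 7 of 10 is again close to the background. The medians were 0.40 for the 10 genes and 0.34 for all tested genes. Grap2 averaged 30.9 ± 2.999 TPM in L252P centrocytes and 5.45 ± 1.98 TPM in L252P centroblasts (2.36 ± 0.19, limma adjusted p = 4.20e-09). Bank1 averaged 442 ± 49.3 TPM in L252P centrocytes and 181 ± 27.6 TPM in L252P centroblasts (1.29 ± 0.10, limma adjusted p = 4.89e-09). Pik3ap1 had 416, 383, 459, 443 and 426 TPM in L252P centrocytes, against 323, 258, 223, 161 and 109 TPM in L252P centroblasts (1.07 ± 0.18, limma adjusted p = 4.17e-05). None of these 3 adaptors overlapped between the gates, which was so, with centrocytes above, for 28.7% of all tested genes.

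Lyn (0.40 ± 0.11, limma adjusted p = 0.00351), Syk (0.41 ± 0.14, 0.013) and Plcg2 (0.41 ± 0.12, 0.0046) were also higher in L252P centrocytes than in L252P centroblasts. For each of these 3 genes L252P centroblast 1 lay in the centrocyte range and the other 4 centroblast libraries below it. These 3 rested on the scaling, at 0.04, 0.05 and 0.05 with median-of-ratios scaling. Without L252P centroblasts 4 and 5 Lyn was at 0.18 (0.0193), Syk at 0.21 (0.116) and Plcg2 at 0.20 (0.0614). Cd79b was the member that was lower, with 3021, 2506, 2466, 3060.4 and 3227 TPM in L252P centrocytes, against 3301, 3468, 3468, 4416 and 4638 TPM in L252P centroblasts. No centrocyte library reached the centroblast range, which was so for 7.91% of all tested genes (-0.43 ± 0.10, limma adjusted p = 0.00101). Cd79a (0.13), Btk (0.07) and Blnk (-0.10) did not pass. With median-of-ratios scaling Btk (-0.29, limma adjusted p = 0.0123) and Blnk (-0.45, 6.79e-05) were lower too, and the split of all called genes moved to 3362 higher and 3286 lower, against 5561 and 1436 as deposited. In the L252P gates the myeloid list summed to 287 ± 83.4 TPM (169.9 to 361) in centrocytes and 102 ± 35.6 TPM (59.2 to 134) in centroblasts, with 11 of 13 genes higher. The 6 B cell markers summed to 7017 ± 264 TPM in centrocytes and 4492 ± 425 TPM in centroblasts, with 6 of 6 higher. The naive B cell markers summed to 1265 ± 121 TPM in centrocytes and 384 ± 82.9 TPM in centroblasts, with 8 of 9 higher. The plasma cell markers had a lower sum in centrocytes (1933 ± 329 TPM) than in centroblasts (3647 ± 342 TPM). Of the 6 tested, 2 were higher and 2 lower. The T and NK cell markers summed to 470 ± 28.3 and 517 ± 28.2 TPM. Of the 5 tested, 1 was higher and 1 lower. The part of these cells in the results was not tested.

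**Figure D4:**
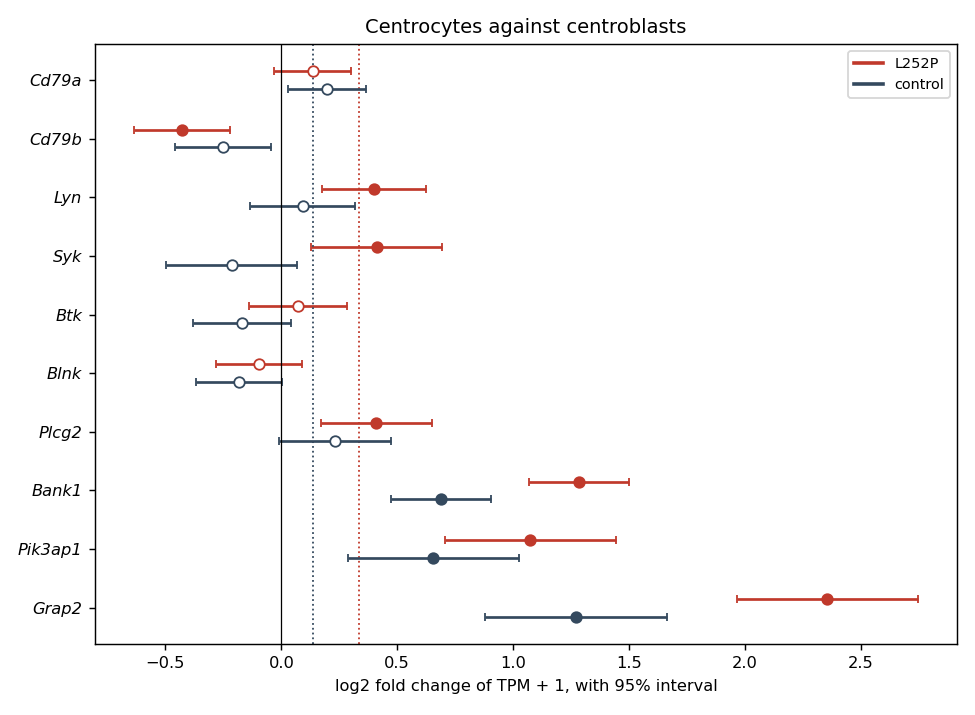
Log2 fold change of TPM + 1, centrocytes against centroblasts, for the 10 genes in L252P (upper, red) and control (lower, dark blue) cells, with 95% intervals. Filled points pass the adjusted threshold, and dotted vertical lines mark the median of all tested genes at 0.34 in L252P and 0.14 in control cells. Bank1, Pik3ap1 and Grap2 lie right of both medians in both genotypes, and Cd79b lies left of 0 in both.

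The ratio of Cd79b to Cd79a within a library does not depend on how the library is scaled, and both transcripts have nearly the same length. It was 1.41, 1.27, 1.13, 1.51 and 1.48 in L252P centrocytes, 1.61, 1.61, 1.54, 1.79 and 1.75 in control centrocytes, 1.73, 1.99, 2.02, 2.21 and 2.06 in L252P centroblasts and 2.46, 2.20, 2.19, 2.08 and 2.41 in control centroblasts. The means, low to high, were 1.36 ± 0.156 in L252P centrocytes, 1.66 ± 0.105 in control centrocytes, 2.002 ± 0.173 in L252P centroblasts and 2.27 ± 0.162 in control centroblasts. Cd79b was the more abundant transcript in all 20 libraries. The mean of L252P centroblasts 4 and 5 over that of 1 to 3 was 1.33 for Cd79b and 1.19 for Cd79a. The part of this in the ratio was not tested.

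In L252P centrocytes the log2 ratio was lower than in control centrocytes by a difference of -0.30, with no overlap (two-sided exact permutation p = 0.00794, the smallest that 5 against 5 allows, and 0.0106 adjusted over the 4 comparisons). In L252P centroblasts the difference from control centroblasts was -0.18 (exact permutation adjusted p = 0.0397), the groups overlapped, and the call was lost without any of control centroblasts 1, 2 and 5 or L252P centroblasts 1, 2, 3 and 5 (exact permutation adjusted p up to 0.0794). Without both of L252P centroblasts 4 and 5 the difference was -0.25 (exact permutation adjusted p = 0.0357). Centrocytes were lower than centroblasts by -0.45 in controls and -0.56 in L252P cells on the log2 scale, with no overlap in either (exact permutation adjusted p = 0.0106 each). Leaving out any 1 library kept the last 2 between -0.48 and -0.42 and between -0.61 and -0.50. The ratio of Cd79b to Cd79a and its tests were also chosen with earlier results of these data known, and the p-values do not allow for that choice.

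**Figure D5:**
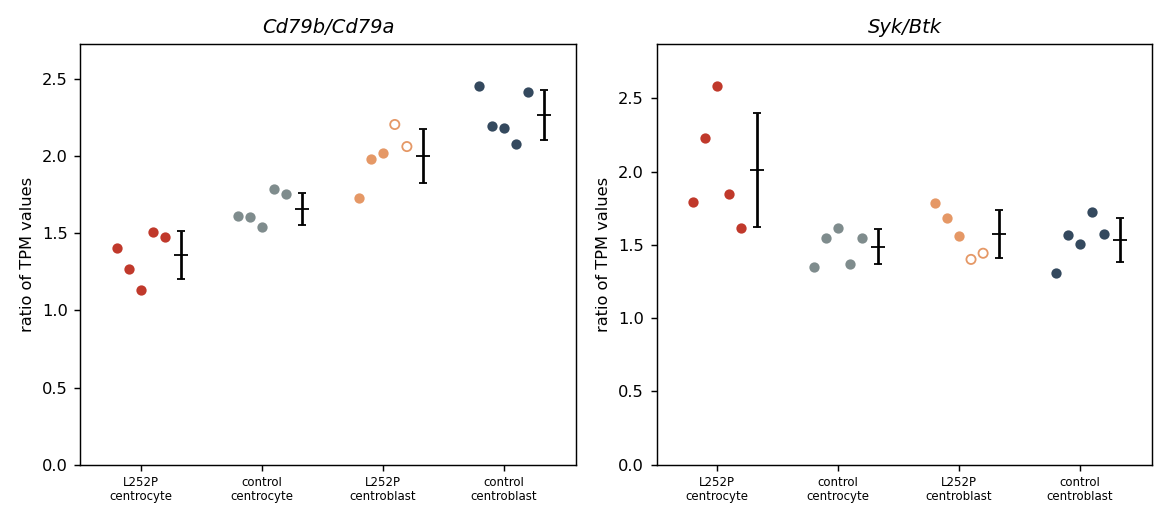
Ratio of Cd79b to Cd79a TPM (left) and of Syk to Btk TPM (right) on linear axes from 0, for each library by group, with black bars for mean ± SD (n = 5) and open circles for L252P centroblasts 4 and 5. The Cd79b to Cd79a ratio is lowest in L252P centrocytes (1.13 to 1.51), and the Syk to Btk ratio has its highest value, 2.58, in the same group.

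A second ratio, that of Syk to Btk, was chosen after the values were seen and is given without a test. It was 1.79, 2.23, 2.58, 1.85 and 1.62 in L252P centrocytes, against 1.35, 1.55, 1.62, 1.37 and 1.55 in control centrocytes. The lowest L252P library and the highest control library were equal to 3 digits. It was 1.57 ± 0.161 in L252P centroblasts and 1.53 ± 0.149 in control centroblasts.

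Of 56 further genes of the pathway (other kinases, phosphatases, adaptors, phosphoinositide 3-kinase subunits, calcium channels and NF-kB and NFAT components) 53 were tested. In L252P centroblasts 5 were lower than in control centroblasts and none was higher, beside 3.38% and 0.905% of all tested genes, with a median of -0.29. Dapp1, a phosphoinositide-binding adaptor, averaged 49.5 ± 10.5 TPM in L252P centroblasts and 69.2 ± 6.82 TPM in control centroblasts (-0.50, limma adjusted p = 0.0258). Prkcb, the protein kinase C that acts after PLCG2, averaged 85.0 ± 39.2 TPM in L252P centroblasts and 140.2 ± 16.4 TPM in control centroblasts (-0.84, limma adjusted p = 0.0301). Blk, a SRC family kinase, averaged 341 ± 34.6 TPM in L252P centroblasts and 425 ± 37.9 TPM in control centroblasts (-0.32, limma adjusted p = 0.0345). Rasgrp1, an exchange factor for RAS, was at -0.64 (0.0345), and the fifth was the ubiquitin ligase Cblb. None of the 53 passed without L252P centroblasts 4 and 5, without L252P centroblast 4 alone, without control centroblast 2 or without control centroblast 5, and 24 passed without L252P centroblast 1, the fit in which 27.3% of all tested genes passed. In L252P centrocytes none of the 53 passed in limma against control centrocytes, and 5 had an unadjusted p under 0.05, beside 9.61% of all tested genes. With median-of-ratios scaling, without L252P centroblasts 4 and 5, and with the replicate block, 1 passed as higher. Of all tested genes 1.29%, 2.28% and 1.7% passed as higher in those fits. For the difference of the genotype effects none passed and 10 had an unadjusted p under 0.05, beside 11.6% of all tested genes.

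Between the gates 21 of the 53 were higher and 1 was lower in control centrocytes against control centroblasts (median 0.33), beside 21.2% and 9.48% of all tested genes. Sh3bp2, an adaptor for SYK and BTK signalling, averaged 37.5 ± 7.04 TPM in control centrocytes and 14.9 ± 1.82 TPM in control centroblasts (1.26, limma adjusted p = 5.44e-07). Lat2, a membrane adaptor of B cells, averaged 486 ± 7.44 TPM in control centrocytes and 306 ± 19.3 TPM in control centroblasts (0.67, limma adjusted p = 5.64e-07). Themis2 (1.10) and the SRC family kinase Fgr (0.84) followed. The gene that was lower, named after its values were seen, was the inhibitory adaptor Dok3, at 275 ± 38.2 TPM in control centrocytes and 407 ± 73.4 TPM in control centroblasts (-0.56, limma adjusted p = 6.24e-04).

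In L252P cells 45 of the 53 were higher and 1 was lower in centrocytes against centroblasts (median 0.64), beside 48.8% and 12.6% of all tested genes. With median-of-ratios scaling 28 were higher and 5 lower, beside 29.6% and 28.9% of all tested genes. Themis2 averaged 112 ± 5.83 TPM in L252P centrocytes and 35.7 ± 8.06 TPM in L252P centroblasts (1.65, limma adjusted p = 5.20e-09). Pik3r5, a regulatory subunit of phosphoinositide 3-kinase gamma, averaged 5.92 ± 2.22 TPM in L252P centrocytes and 0.739 ± 0.421 TPM in L252P centroblasts (1.97, limma adjusted p = 7.77e-08). Sh3bp2 (1.38) and Fgr (1.17) were the other named genes, and Dok3 was again the lower one, at 237 ± 18.7 TPM in L252P centrocytes and 385 ± 29.7 TPM in L252P centroblasts (-0.70, limma adjusted p = 2.41e-05). Fgr and Themis2 are also expressed by myeloid cells, whose markers were higher in centrocytes as given above.

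The genes outside the 10 whose log2 levels ran most closely with each member over the 20 libraries are a description, since these libraries share their groups and the length pattern. Pearson's r was 0.987 for Pik3ap1 with Sh3pxd2a, 0.986 for Lyn with Mtmr6, 0.983 for Bank1 with Tm6sf1, 0.974 for Plcg2 with Acly and 0.970 for Grap2 with S1pr3. It was 0.960 for Btk with Susd1, 0.947 for Blnk with Mesdc1, 0.939 for Cd79b with Pold4, 0.930 for Syk with Helz and 0.876 for Cd79a with Cxx1a. For deviations from the group means it ranged from 0.791 (Grap2 with S1pr3) to 0.967 (Lyn with Mtmr6). Among the members, Cd79a and Cd79b had an r of -0.10 over the libraries and 0.64 for deviations from the group means. Grap2 and Bank1 had 0.96 and 0.50, and Plcg2 and Pik3ap1 0.93 and 0.93.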

How the data were processed

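The 20 libraries were put in 4 groups of 5 by their titles, sort gates and genotype labels. Per the labels' protocols the kit was a stranded one for mRNA. The deposited values are TPM for each gene symbol. Per the submitters' processing notes, STAR and build mm10 served the authors to make them. Tool versions, the counting step and the annotation: not given in the sources used here. Since TPM keeps no depth, no counting interval is given.

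Values were tested as log2(TPM + 1), a scale that understates changes of low genes, in limma 3.58.1 (R 4.3.3) with moderated variances (trend and robust settings on), two-sided, and 4 group means over all libraries (16 residual degrees of freedom). Tested genes had at least 1 TPM in at least 5 libraries. Benjamini-Hochberg adjustment ran over all of them, with calls under 0.05. The fit was tested on simulated data. The ratio of Cd79b to Cd79a was tested with an exact permutation test in SciPy 1.17.1, adjusted over 4 comparisons. Named genes were all 10 members, up to 4 called genes of the further pathway list per comparison by adjusted p, and the gene most alike to each member. Gene models with numbers and receptor gene segments were left out of the last. The members, the lists and the tests were chosen with earlier results of these data known. Positions are RefSeq GRCm38.p6 and GENCODE M21, the assembly of mm10. Alternatives were another pseudocount, no filter, median-of-ratios scaling, no trend or robust setting, only the groups compared, replicate blocks, and leaving out L252P centroblasts 4 and 5 or each library in turn. Some marker genes are not reported here.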

Additional observations from a re-analysis of the deposited data

Results flagged for a closer look

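Among 44 groups of 5 values tested for a single library far from the other 4 (the gap to the nearest library over the whole range, above 0.71), 2 were found, both for Bank1. Chance gives about 1 in 20 groups, or 2.2 of the 44. Bank1 was at 386.5 TPM in control centrocyte 1, lower than the other 4 control centrocytes (466 to 497 TPM), with a gap of 0.721 of the range. Bank1 was at 333.1 TPM in control centroblast 2, higher than the other 4 control centroblasts (267 to 280.0 TPM), with a gap of 0.8 of the range. Leaving out each library in turn kept Bank1 lower in L252P centroblasts, between -0.72 and -0.58 on the log2 scale (largest limma adjusted p = 0.00771), and higher in control centrocytes than in control centroblasts, between 0.66 and 0.75 (largest limma adjusted p = 2.39e-04).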

How the results depend on the processing

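Bank1 and Grap2 in L252P centroblasts, and Bank1, Pik3ap1 and Grap2 between the gates in both genotypes, passed in the same direction under every alternative tried. Of the 10 genes, the number called in L252P centroblasts was 2 with median-of-ratios scaling and 2 with these groups alone (2 to 7 leaving out each library). In L252P centrocytes it was 1, Cd79b, with these groups alone, without L252P centroblasts 4 and 5, and with the replicate block (0 to 0 leaving out each library). For the difference of the genotype effects it was 1, Grap2 (limma adjusted p = 0.0467), with the replicate block within genotype. In the control gates it was 6 with median-of-ratios scaling, 8 with these groups alone and 8 without L252P centroblasts 4 and 5 (3 to 8 leaving out each library), and in the L252P gates 7 to 8 leaving out each library. Over all genes the calls in L252P centroblasts (488) became 270 with no filter, 27 with these groups alone and 793 with the replicate block (147 to 3102 leaving out each library). Those in L252P centrocytes (137) became 83 with a pseudocount of 0.1, 302 with these groups alone, 387 without libraries 4 and 5 and 242 with the block (44 to 238). Those for the difference (2) became 0 with median-of-ratios scaling, without trend or robust and with the block, 14 with the block within genotype and 4 without libraries 4 and 5 (0 to 7). The control gates (3498) gave 5417 without libraries 4 and 5 (2636 to 4724), and the L252P gates 6299 to 7343. The fit of these groups alone gives no value for the difference. The causes were not tested.

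Signs that turned all belonged to values that did not pass as deposited. With median-of-ratios scaling they were Cd79b (0.040) and Blnk (0.091) in L252P centroblasts, Blnk (-0.13) and Plcg2 (-0.034) for the difference, Lyn (-0.051) in the control gates, and Cd79a (-0.22) and Btk (-0.29) in the L252P gates. Without L252P centroblasts 4 and 5 they were Cd79a (-0.064), Blnk (0.025) and Pik3ap1 (0.013) in L252P centroblasts, Cd79a (0.037), Blnk (-0.034) and Plcg2 (-0.030) for the difference, and Btk (-0.036) in the L252P gates. Leaving out each library, Cd79a ran from -0.024 to 0.074 in L252P centroblasts and from -0.052 to 0.0060 in L252P centrocytes, Blnk from -0.029 to 0.0093 in L252P centrocytes, and Btk from -0.051 to 0.14 in the L252P gates.

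Same-numbered centrocyte and centroblast libraries were not treated as pairs, since the labels give no shared origin and not every pair was over 0.1, but a shared origin was not tested. Their deviations from the group means correlated over 0.1 in 4 of 5 pairs in L252P cells (-2.93e-05 to 0.269) and 4 of 5 in controls (-0.0168 to 0.259). Libraries of different number had a mean correlation of -0.043 in L252P cells and -0.040 in controls. Of the 5 centrocyte libraries, 3 in L252P cells and 4 in controls correlated best with their own number. With the replicate block the differences of the log2 ratio of Cd79b to Cd79a were -0.18 in L252P centroblasts, -0.30 in L252P centrocytes, -0.45 in the control gates and -0.56 in the L252P gates, and none can pass, since 5 sign-flipped pairs allow no p under 0.0625. Leaving out each library the log2 ratio differences ran from -0.22 to -0.13 in L252P centroblasts, -0.34 to -0.23 in L252P centrocytes, -0.48 to -0.42 in the control gates and -0.61 to -0.50 in the L252P gates. Depth is unknown, so counting error could not be set beside the spread between libraries.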
